A study of Homo sapiens with 8 samples.

Results

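Interferon-stimulated genes are the genes that cells switch on when they sense interferon or foreign nucleic acid, and 44 of them, given as a list of names and chosen with earlier results of these data known, were followed here. Of the 44, 43 had a probe on the array, and 41 were tested because their probe was well above background on at least 1 of the 8 arrays, out of 15811 genes tested and 20296 genes named in all. The 41 include 31 genes above background on all 8 arrays and 10 above it on 1 to 7, so the latter passed through the arrays where they are high. XAF1 and EPSTI1 had a probe that was not well above background on any array, and no probe was matched to IFI27.

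The cells were MCF10A, a non-tumorigenic human mammary epithelial line, in a p53+/+ form and a p53-/- form that lacks the tumour suppressor p53, and how the p53-/- line was made is not given in the sources used here. Both were exposed to adriamycin (ADR, doxorubicin), a DNA-damaging drug, for 2 h at 0.5 µg/ml, as the labels have it. The study's methods give a higher concentration. RNA was taken at 12, 24 and 48 h after ADR and, untreated, at 0 h. Each of the 8 conditions was measured on 1 single-colour Agilent array, so no single time point has a replicate error. Every level below is a log2 level, the log2 of a probe's processed signal minus that of the 75th percentile of its array, and it can be compared between arrays for 1 gene but not between genes.

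The array labelled p53+/+ 0 h read more like the p53-/- arrays than like the treated p53+/+ ones. A set of 230 genes was chosen without it, each separating treated p53+/+ from p53-/- arrays by at least 2 on the log2 scale. On the array labelled p53+/+ 0 h 222 of these lay nearer the p53-/- level. Genes that ADR changes only where p53 is present meet this rule too. An untreated p53+/+ array would lie near the p53-/- level for those genes, so the count is no test of the label. The array is called the array labelled p53+/+ 0 h throughout, and p53+/+ values are also set against the p53-/- 0 h array. Markers of cell identity differed along the same split: the summed log2 level of 10 epithelial markers was 8.77 to 8.95 on the treated p53+/+ arrays and 7.30 to 7.81 on the p53-/- arrays and the array labelled p53+/+ 0 h, and that of 5 fibroblast markers was 2.11 to 2.39 against 5.71 to 6.07. Of the fibroblast markers, COL1A2 was below background on all 8 arrays, and COL1A1 and LUM were below it on the 3 treated p53+/+ arrays alone. PDGFRA was above background on the p53-/- 24 and 48 h arrays alone. The fibroblast sum is nearly that of DCN by itself, which read 2.09 to 2.37 on the treated p53+/+ arrays and 5.70 to 6.07 on the other 5. Leukocyte markers summed to 1.76 to 2.10 against 2.18 to 2.96, with NKG7 below background throughout, and endothelial markers to -2.48 to -2.13 against -1.48 to -0.98. The part of these markers in the genotype differences below was not tested. The p53+/+ 48 h array stands apart in that none of its 10 spike-in probes was above background, against 6 on each other array.

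As background, type I and type III interferons bind receptors that activate the kinases JAK1 and TYK2, which phosphorylate STAT factors. STAT2 enters with IRF9 into a complex that binds the interferon-stimulated response element (ISRE) in the promoters of many of the genes followed here, whereas interferon gamma acts through the gamma-activated site (GAS), as in the IRF1 promoter. The products sense viral RNA, degrade RNA or block its translation, attach the ubiquitin-like protein ISG15 to other proteins, and hold virus particles at the cell surface. DNA damage is known to switch on part of this programme through nucleic acid sensors in the cytosol.

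Promoter sequence shows what most members have in common beside the list they were taken from. RefSeq windows of assembly GRCh38.p14, running from 250 bases before to 50 bases after the annotated start, were found for 35 of the 44 members. The core of the ISRE, searched on both strands as GAAA, any 2 bases and GAAA again, was present for 25 of these 35 genes (71.4%), against 1195 of 27305 genes with a window (4.38%). By window, 29 of 45 member windows (64.4%) and 3.57% of all 35116 windows held it. The GAS letters, TTCNNNGAA, which read the same on both strands and can overlap an ISRE core, were present for 12 of the 35 members (34.3%) and 9.38% of all genes. The match is one of letters and says nothing of which factor was bound in these cells. The 5 windows that follow belong to the highest and the lowest member of the genotype comparison (BST2 and IFI44L), to HERC5 and ISG15, whose products make up one modification system, and to IRF1, whose window held GAS letters and no ISRE core.
BST2 promoter, chr19:17405581-17405880, minus strand: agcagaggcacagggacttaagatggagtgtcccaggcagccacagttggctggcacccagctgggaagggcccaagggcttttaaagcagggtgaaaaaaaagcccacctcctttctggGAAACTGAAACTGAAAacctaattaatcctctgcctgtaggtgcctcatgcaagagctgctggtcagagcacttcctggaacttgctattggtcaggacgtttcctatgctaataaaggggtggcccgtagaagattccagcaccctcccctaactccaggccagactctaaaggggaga
HERC5 promoter, chr4:88456869-88457168, plus strand: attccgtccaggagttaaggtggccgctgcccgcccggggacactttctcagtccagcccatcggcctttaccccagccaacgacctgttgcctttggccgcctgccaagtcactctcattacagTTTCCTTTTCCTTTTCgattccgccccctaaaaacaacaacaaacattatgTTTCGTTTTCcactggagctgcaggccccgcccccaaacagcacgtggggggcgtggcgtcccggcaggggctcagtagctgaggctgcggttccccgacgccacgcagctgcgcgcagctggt
ISG15 promoter, chr1:1013247-1013546, plus strand: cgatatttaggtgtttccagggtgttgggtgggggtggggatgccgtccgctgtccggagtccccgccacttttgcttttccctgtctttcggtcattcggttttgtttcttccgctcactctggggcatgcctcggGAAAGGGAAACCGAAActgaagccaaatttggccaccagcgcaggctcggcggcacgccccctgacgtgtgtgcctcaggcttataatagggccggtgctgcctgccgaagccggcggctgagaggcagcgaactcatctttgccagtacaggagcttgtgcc
IFI44L promoter, chr1:78620198-78620497, plus strand: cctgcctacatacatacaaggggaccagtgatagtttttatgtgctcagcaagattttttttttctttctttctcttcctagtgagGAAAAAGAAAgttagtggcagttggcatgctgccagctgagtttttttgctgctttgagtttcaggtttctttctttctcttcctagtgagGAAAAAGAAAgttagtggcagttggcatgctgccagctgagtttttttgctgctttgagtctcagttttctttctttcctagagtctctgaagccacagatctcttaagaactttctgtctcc
IRF1 promoter, chr5:132490724-132491023, minus strand: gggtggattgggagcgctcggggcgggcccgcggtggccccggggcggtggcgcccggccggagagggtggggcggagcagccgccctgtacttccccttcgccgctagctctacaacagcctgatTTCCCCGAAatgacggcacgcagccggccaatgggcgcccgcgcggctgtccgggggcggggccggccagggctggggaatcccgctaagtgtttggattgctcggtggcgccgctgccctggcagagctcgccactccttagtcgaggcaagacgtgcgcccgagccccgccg
Capitals mark the ISRE core in the first 4 sequences and the GAS letters in the IRF1 sequence. In the BST2, HERC5 and ISG15 windows, cores overlap and read as 1 longer run of capitals. The IFI44L window held the same 10 letters at both of its sites, from -164 to -155 and from -73 to -64, counted from the start.

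**Figure D1:**
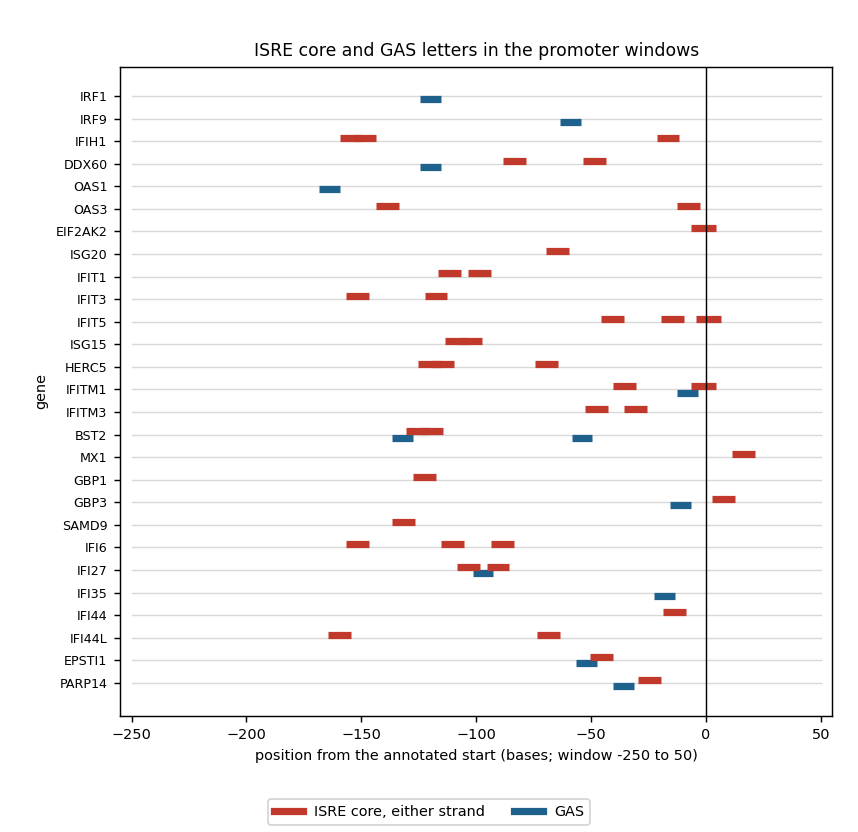
Positions of the ISRE core (red, drawn just above each gene's line) and the GAS letters (blue, drawn just below it) in the first listed RefSeq promoter window of each member that held either, with the annotated start at 0 and bases on the horizontal axis. Most red bars lie before the start, as in BST2, where cores run from -130 to -115.

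In p53-/- cells more of the list lay above its 0 h level at each later time after ADR. At 12 h, 8 of the 41 genes were at least 2-fold above the p53-/- 0 h array, against 4.82% of all genes. At 24 h the number was 21, against 9.65%, and at 48 h it was 28, against 14.9%. With normexp background correction the counts were 3, 13 and 17 (1.69, 3.76 and 5.19% of all genes), and with no scaling 13, 26 and 31 (10.5, 17.5 and 26.6%). Only 2 members were at least 2-fold lower at each of these times (5.62, 5.34 and 7.51% of all genes). The median log2 difference of the 41 from 0 h was 0.28, 1.06 and 1.45 at 12, 24 and 48 h, and that of all genes was -0.02, 0.01 and 0.07. At 48 h 35 of the 41 lay above their 0 h level. With 1 array a condition there was no test of these differences. At all 3 times 7 members were at least 2-fold higher (IRF1, IFIH1, OAS3, OASL, RSAD2, CMPK2 and PARP14), against 3.21% of all genes, although RSAD2 was below background at 0 and 12 h. GBP2 was the 1 member at least 2-fold lower at all 3 times, against 2.04% of all genes.

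On the treated p53+/+ arrays the number of members above 0 h was nearly the same at each time. Against the array labelled p53+/+ 0 h, 15, 18 and 16 of the 41 were at least 2-fold higher at 12, 24 and 48 h, where 13.1, 15.7 and 19.0% of all genes were. At all 3 times 12 members were: STAT2, IFIH1, OAS2, ISG20, IFIT1, IFIT2, ISG15, HERC5, HERC6, BST2, MX1 and PARP14, against 9.53% of all genes. Of these, HERC6 was below background at 24 and 48 h and MX1 at 12 and 48 h, as both were on the array labelled p53+/+ 0 h. GBP2, IFI44 and IFI44L were at least 2-fold lower at all 3 times (6.39% of all genes). Against the p53-/- 0 h array the counts were 14 higher (9.55%) and 4 lower (6.79%) at all 3 times. STAT2, IFIT1 and MX1 were then outside the higher group, and IRF1, DHX58, IFIT3, GBP3 and IFI6 were inside it. The plot of members by array shows the 2 time courses side by side.

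**Figure D2:**
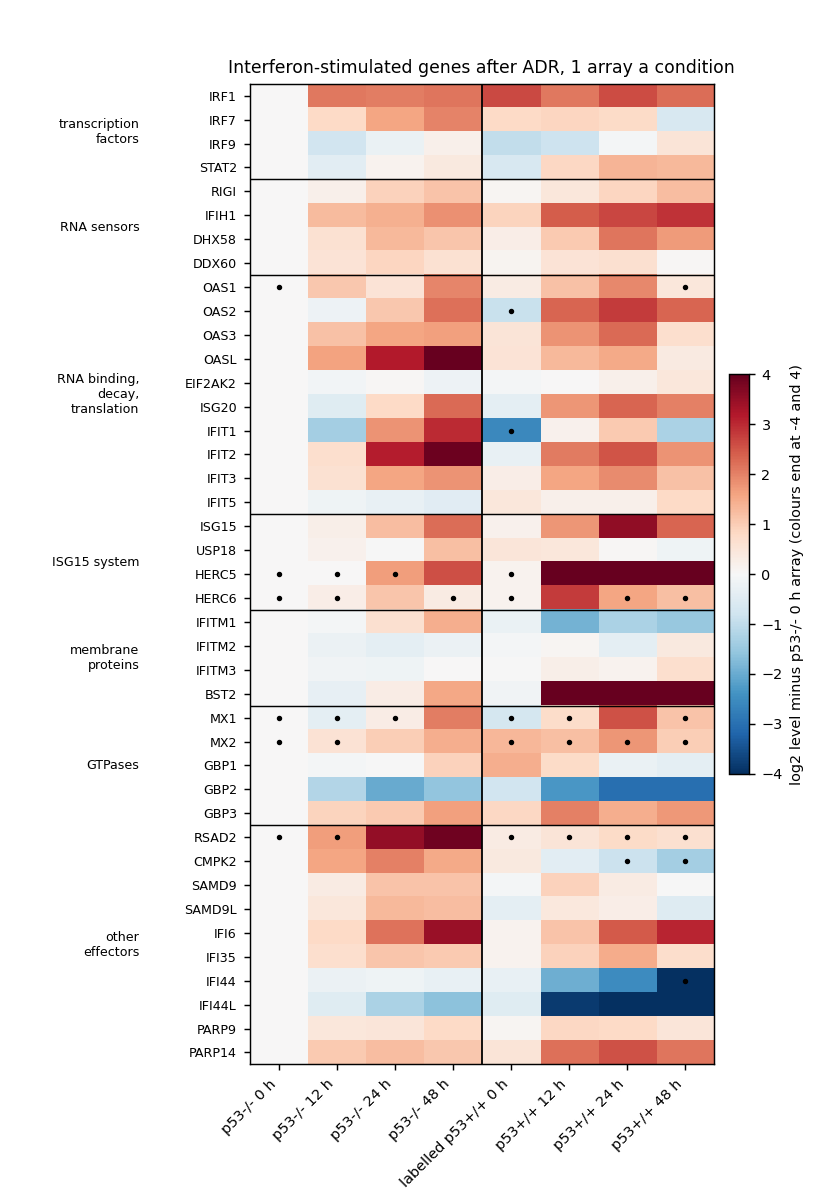
Heat map of the 41 tested members (rows, grouped by role) on the 8 arrays (columns), coloured by log2 level minus that on the p53-/- 0 h array, so that the first column is 0, with a black dot where a probe was not well above background. Most p53-/- rows turn redder from 12 to 48 h, whereas BST2 and HERC5 are deep red on all 3 treated p53+/+ arrays and IFI44 and IFI44L are blue on them.

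Between treated genotypes the list had no common direction in the mean over the 3 times. limma, with the 3 treated times of a genotype standing in for replicates and 4 residual degrees of freedom, called 5 members higher on the treated p53+/+ arrays (BST2, HERC5, IFIH1, PARP14 and STAT2), where 11.6% of all genes were called higher. It called 6 lower (IFI44L, IFI44, CMPK2, RSAD2, IFITM1 and GBP2; RSAD2 as a bound), where 9.34% of all genes were called lower. The other 30 of the 41 passed in neither direction. The shares of members called, 12.2% and 14.6%, are near those of all genes, and the median difference of the members was 0.13 against 0.05 for all genes on the log2 scale. Taken singly, the times differed: 32 of the 41 were higher on the p53+/+ array at 12 h, 25 at 24 h and 17 at 48 h. The median difference was 0.38, 0.31 and -0.40 at these times, against 0.09, -0.03 and 0.10 for all genes, with no test. By size alone, 4 members were at least 2-fold higher at all 3 times (6.75% of all genes) and 5 at least 2-fold lower (5.92%). The 3 treated p53+/+ arrays lay wholly above the 3 treated p53-/- arrays for 9 members (24.6% of all genes) and wholly below them for 8 (19.9%). The split of 5 higher and 6 lower calls was 2 and 8 with no scaling of the arrays, 2 and 7 with spike-in scaling (fitted without the p53+/+ 48 h array, which had no spike-in signal) and 9 and 5 with normexp background correction, and over 3 arrays a genotype the p-values measure the difference against movement over time.

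**Figure D3:**
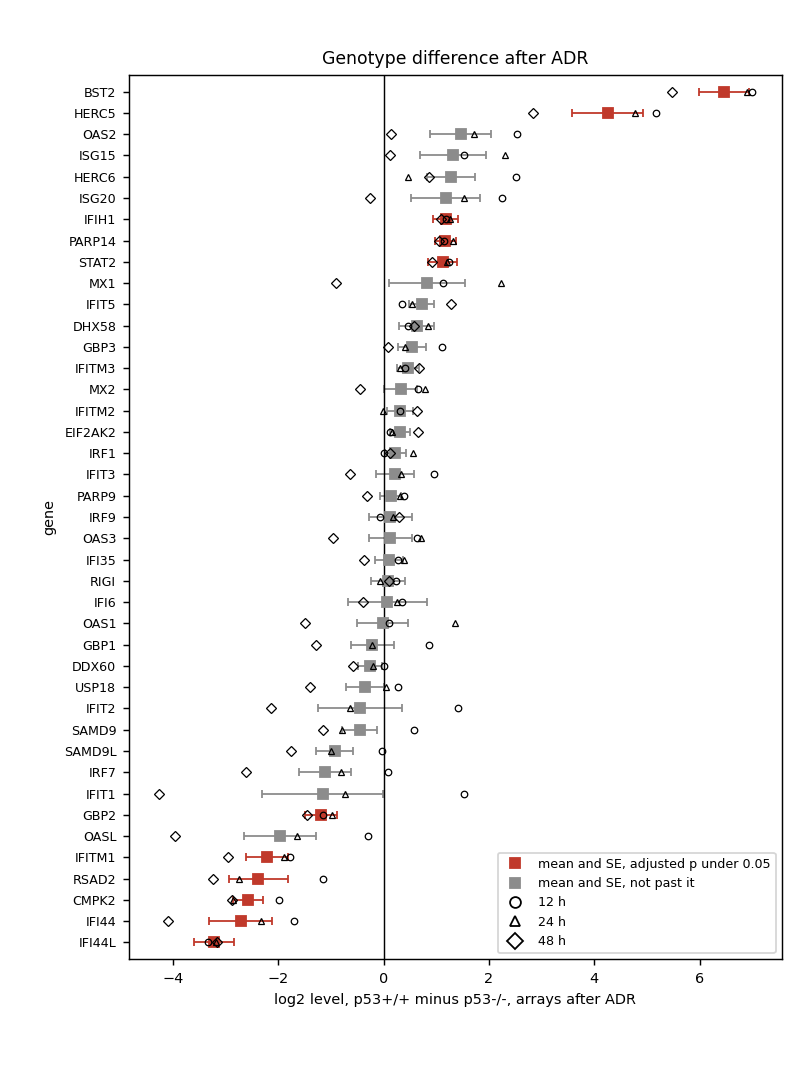
Log2 level on p53+/+ minus p53-/- arrays after ADR for the 41 tested members, with the 12, 24 and 48 h differences as open symbols and their mean with its SE from limma as a square, red where the adjusted p was under 0.05. The squares run from -3.23 (IFI44L) to 6.46 (BST2), and the open diamonds of 48 h lie left of the circles of 12 h for most genes in the middle of the plot.

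The 4 transcription factors differed from each other in pattern. STAT2, a part of the ISRE-binding complex, read 2.53, 2.12, 2.68 and 2.93 at 0, 12, 24 and 48 h in p53-/- cells. The treated p53+/+ arrays read 3.37, 3.88 and 3.84, all above every other array, with 1.89 on the array labelled p53+/+ 0 h. The treated difference was 1.12 ± 0.28 (SE; limma adjusted p = 0.037), and it did not pass without the p53+/+ 48 h array (1.05, adjusted p = 0.086), with no scaling (0.52, adjusted p = 0.195), with spike-in scaling (0.42, adjusted p = 0.373) or with any 1 treated time left out (adjusted p = 0.068 to 0.253).

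IRF1, a factor that both interferons and other stress signals induce, read -1.90 at 0 h and 0.21, 0.16 and 0.24 at 12, 24 and 48 h in p53-/- cells. The treated p53+/+ arrays read 0.22, 0.70 and 0.35 and the array labelled p53+/+ 0 h read 0.74, so the p53-/- 0 h array alone was low. The genotype difference after ADR was 0.22 ± 0.20 (adjusted p = 0.479). The difference between genotypes in the change from 0 h, the interaction term of the same fit, was -2.42 ± 0.39 (adjusted p = 0.042). With 1 array at 0 h in each genotype it restates the low p53-/- 0 h array, and it did not pass with time point as a block.

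IRF7, which amplifies interferon production, read 0.91, 1.69, 2.48 and 2.89 in p53-/- cells, higher at each later time, and 1.77, 1.66 and 0.28 on the treated p53+/+ arrays, with 1.72 on the array labelled p53+/+ 0 h. The difference between genotypes was 0.08 at 12 h and -2.61 at 48 h, and the mean difference of -1.12 ± 0.49 did not pass (adjusted p = 0.162). IRF9, the DNA-binding part of the same complex as STAT2, read -0.92, -1.67, -1.17 and -0.70 in p53-/- cells and -1.75, -1.0 and -0.41 on the treated p53+/+ arrays, with -1.90 on the array labelled p53+/+ 0 h. Its genotype difference was 0.13 ± 0.40 (adjusted p = 0.863).

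Of the 4 RNA sensors, IFIH1 passed. IFIH1 (MDA5), which detects long double-stranded RNA, read -2.11, -0.86, -0.70 and -0.29 in p53-/- cells and 0.32, 0.56 and 0.79 on the treated p53+/+ arrays, with -1.22 on the array labelled p53+/+ 0 h. It was higher at each later time on both sets of arrays, and the treated groups did not overlap. The difference was 1.17 ± 0.23 (adjusted p = 0.019), close to the same size at 12, 24 and 48 h (1.18, 1.26 and 1.08), and it was 0.58 with no scaling and 0.43 with spike-in scaling, where it did not pass (adjusted p = 0.093 and 0.307).

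RIGI, which detects short RNA with a triphosphate end, had probes that disagreed in sign. The chosen probe read -1.68, -1.48, -0.76 and -0.56 in p53-/- cells and -1.24, -0.84 and -0.45 on the treated p53+/+ arrays, a difference of 0.09 ± 0.32 (adjusted p = 0.882), whereas the second gave -0.32 (adjusted p = 0.614). Both probes were above background on all 8 arrays, and neither passed. For DHX58 (LGP2) and DDX60, helicases related to these sensors, the differences were 0.63 ± 0.34 and -0.26 ± 0.23, with adjusted p of 0.240 and 0.477.

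None of the 10 genes whose products bind or degrade RNA or block translation passed the genotype test, and their median difference was 0.17. Their time courses differed in shape between genotypes. OASL, an OAS-like protein that enhances RIG-I signalling, read -3.50, -1.88, -0.33 and 0.83 in p53-/- cells, a 20.1-fold difference between 0 and 48 h. On the treated p53+/+ arrays it read -2.19, -1.98 and -3.13, with -2.95 on the array labelled p53+/+ 0 h. The treated groups did not overlap, but the mean difference of -1.97 ± 0.69 did not pass (adjusted p = 0.096).

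OAS2, one of the synthetases of the short adenylate messenger that activates RNase L, read -4.61, -4.82, -3.52 and -2.41 in p53-/- cells and -2.29, -1.81 and -2.28 on the treated p53+/+ arrays, with -5.50, below background, on the array labelled p53+/+ 0 h. Every treated p53+/+ array lay above every p53-/- array, narrowly at 48 h, and the difference was 1.46 ± 0.58 (adjusted p = 0.130). OAS3, a second such enzyme, read -2.05, -0.87, -0.49 and -0.42 in p53-/- cells and -0.24, 0.22 and -1.38 on the treated p53+/+ arrays, with -1.54 on the array labelled p53+/+ 0 h. There the 48 h array was low, and the difference was 0.13 ± 0.42 (adjusted p = 0.868). OAS1, with -0.02 ± 0.48, was below background on the p53-/- 0 h and p53+/+ 48 h arrays.

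The IFIT proteins bind viral RNA ends and block their translation. IFIT1 read -2.36, -3.71, -0.57 and 0.64 in p53-/- cells and -2.17, -1.31 and -3.63 on the treated p53+/+ arrays, with -4.93, below background, on the array labelled p53+/+ 0 h. The order of the genotypes thus turned: p53+/+ was 2.90-fold higher at 12 h and 19.4-fold lower at 48 h. The mean difference was -1.16 ± 1.15 (adjusted p = 0.526). IFIT2 went the same way, with -3.62, -2.96, -0.47 and 0.30 in p53-/- cells and -1.55, -1.11 and -1.83 on the treated p53+/+ arrays (array labelled p53+/+ 0 h, -3.93). It was 2.65-fold higher on the p53+/+ array at 12 h and 4.41-fold lower at 48 h, with a mean difference of -0.46 ± 0.80 (adjusted p = 0.736).

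ISG20, an exonuclease that degrades single-stranded RNA, read -0.15, -0.63, 0.66 and 2.12 in p53-/- cells and 1.62, 2.19 and 1.86 on the treated p53+/+ arrays, with -0.54 on the array labelled p53+/+ 0 h. The 3 treated p53+/+ arrays were alike, whereas in p53-/- cells the level was reached only at 48 h, and the difference was 1.17 ± 0.65 (adjusted p = 0.254). The other members of this role, EIF2AK2 (PKR, which blocks translation), IFIT3 and IFIT5, had differences of 0.31, 0.22 and 0.72, none of which passed.

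**Figure D4:**
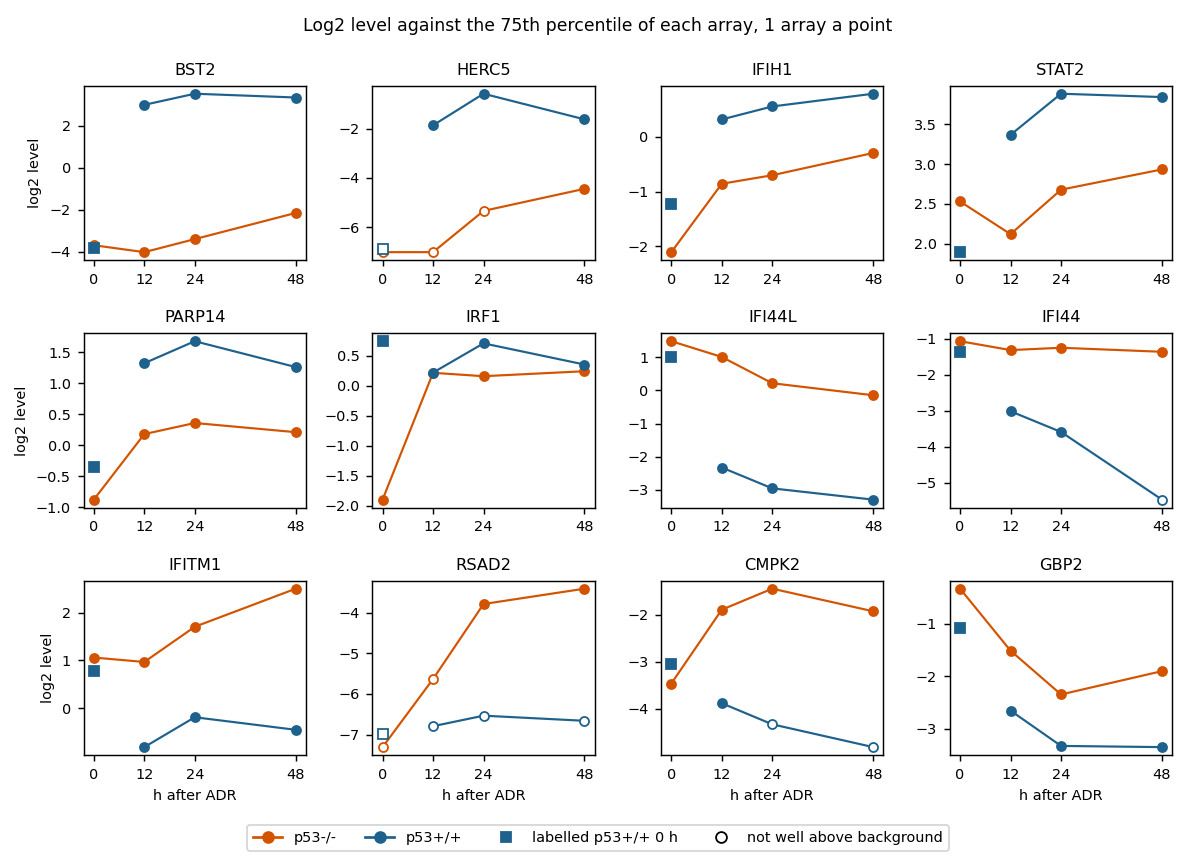
Log2 level of 12 members against hours after ADR (1 array a point), p53-/- in orange and p53+/+ in blue, with a square for the array labelled p53+/+ 0 h and open symbols where the probe was not well above background. BST2 and HERC5 lie far apart between genotypes at 12, 24 and 48 h, the IRF1 lines meet after a low p53-/- 0 h point of -1.90, and RSAD2 is higher in p53-/- cells at each later time while all 4 p53+/+ points are open.

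ISG15 is a ubiquitin-like protein, HERC5 the ligase that attaches it to other proteins, USP18 the protease that removes it, and HERC6 a relative of HERC5. HERC5 read -7.02, -7.02, -5.34 and -4.44 in p53-/- cells, with the 48 h array the only one above background, and -1.85, -0.57 and -1.61 on the treated p53+/+ arrays. The array labelled p53+/+ 0 h read -6.87, also below background. The difference was 4.25 ± 0.68 (adjusted p = 0.0096), from 1 of 3 p53-/- arrays above background, and against the lowest signal above background it was at least 12.7-fold at 12 h and at least 27.3-fold at 24 h. At 48 h, with the probe above background on both arrays, it was 7.10-fold.

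ISG15 read 0.81, 1.06, 2.04 and 3.03 in p53-/- cells and 2.58, 4.35 and 3.15 on the treated p53+/+ arrays, with 0.99 on the array labelled p53+/+ 0 h. It was 4.93-fold higher on the p53+/+ array at 24 h, and at 48 h the genotypes were 1.08-fold apart, with a mean difference of 1.31 ± 0.62 (adjusted p = 0.189). HERC6 was above background at 12 h in p53+/+ cells (-3.65) and at 24 h in p53-/- cells (-5.34) and nowhere else, with a difference of 1.28 ± 0.46 (adjusted p = 0.102) on this probe and 1.79 (adjusted p = 0.047) on a second probe, also above background on 2 arrays. USP18 had a difference of -0.36 ± 0.36 (adjusted p = 0.536).

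Among the membrane proteins, BST2 and IFITM1 moved in opposite directions. BST2 (tetherin), which holds budding virus particles at the cell surface, read -3.68, -4.01, -3.39 and -2.15 in p53-/- cells and 2.98, 3.51 and 3.33 on the treated p53+/+ arrays, with -3.83 on the array labelled p53+/+ 0 h. The 3 treated p53+/+ arrays lay far above the other 5, and the array labelled p53+/+ 0 h lay inside the p53-/- range. The difference was 6.46 ± 0.47 (adjusted p = 0.00076), an 88.2-fold one, and 25th highest of the 15811 genes. A second BST2 probe gave 6.37 (adjusted p = 0.00082). BST2 passed in each of the 15 settings computed for it, with differences of 5.73 to 6.95. The difference between genotypes in its change from 0 h was 6.61 ± 0.94 (limma interaction, adjusted p = 0.030). That term passed for 2 of the 41 members, BST2 and IRF1, against 1.88% of all genes, and for 0 with time point as a block, without the p53+/+ 48 h array or with any 1 treated time left out. It rests on 1 array at 0 h in each genotype.

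Some markers of cell type were split along the same line. The 3 treated p53+/+ arrays lay above the other 5 for 7 of 10 epithelial markers and 1 of 7 leukocyte markers (ITGAM). They lay below them for 3 of 5 fibroblast and 1 of 4 endothelial markers. No share of all genes was computed for a split from all 5. Against the 3 treated p53-/- arrays alone, 24.6% of all genes lay wholly above and 19.9% wholly below. CDH1 (E-cadherin) read 1.42, 2.00 and 2.10 on the treated p53+/+ arrays, -3.55 to -0.94 on the p53-/- arrays, and -3.13 on the array labelled p53+/+ 0 h. EPCAM, an epithelial adhesion molecule, read 1.15, 1.54 and 1.31, then -3.69 to -0.71, and -3.14. ITGAM, a leukocyte integrin, read -1.75, -1.79 and -3.76 against -6.22 to -5.46 on the other 5, all of those below background. CD14, another leukocyte marker, went the other way, with a treated difference of -1.07 ± 0.29 (limma adjusted p = 0.0498). TP63, an epithelial marker, differed by -0.28 ± 0.58 (limma adjusted p = 0.783) and was above background on 3 arrays. Both treated groups had received ADR, and on the p53-/- arrays BST2 differed from 0 h by -0.33, 0.29 and 1.53 at 12, 24 and 48 h. For the BST2 difference, p53 status, alone or together with ADR, and the identity of the cells on these arrays cannot be told apart as sources.

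IFITM1, which hinders the entry of viruses at the cell membrane, read 1.06, 0.97, 1.71 and 2.51 in p53-/- cells and -0.82, -0.19 and -0.46 on the treated p53+/+ arrays, with 0.78 on the array labelled p53+/+ 0 h. The treated p53+/+ arrays were the lowest 3 of the 8. The difference was -2.22 ± 0.41 (adjusted p = 0.015), and a second probe gave -2.43 (adjusted p = 0.012). Its neighbours on chromosome 11, IFITM2 and IFITM3, which act in endosomes, differed by 0.31 ± 0.24 and 0.46 ± 0.21, with adjusted p of 0.418 and 0.176.

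Of the 5 GTPases, GBP2 passed. GBP2, a guanylate-binding protein of the interferon gamma response, read -0.33, -1.51, -2.35 and -1.90 in p53-/- cells and -2.66, -3.33 and -3.36 on the treated p53+/+ arrays, with -1.08 on the array labelled p53+/+ 0 h. After ADR it was lower on all 6 arrays than on either 0 h array. The difference was -1.19 ± 0.30 (adjusted p = 0.040), and it did not pass without the p53+/+ 48 h array (adjusted p = 0.095). MX1, a GTPase that traps viral nucleocapsids, was above background at 48 h in p53-/- cells (-4.33) and at 24 h in p53+/+ cells (-3.83) and nowhere else, with a difference of 0.82 ± 0.72 (adjusted p = 0.477). GBP1, GBP3 and MX2 had differences of -0.22, 0.53 and 0.32, and none passed.

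The remaining effectors held 4 of the 6 lower calls. IFI44L and IFI44, related genes that neighbour each other on chromosome 1, were the lowest members. IFI44L read 1.49, 1.01, 0.22 and -0.14 in p53-/- cells and -2.33, -2.96 and -3.31 on the treated p53+/+ arrays, with 1.01 on the array labelled p53+/+ 0 h. It was lower at each later time on both sets of arrays, and the difference was -3.23 ± 0.38 (adjusted p = 0.0034), 9.39-fold. IFI44 read -1.07, -1.32, -1.25 and -1.37 in p53-/- cells and -3.02, -3.59 and -5.47 on the treated p53+/+ arrays, the last below background, with -1.37 on the array labelled p53+/+ 0 h. Its difference was -2.71 ± 0.60 (adjusted p = 0.026).

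RSAD2 (viperin) and CMPK2, neighbours on chromosome 2, make an antiviral nucleotide analogue and its precursor. RSAD2 read -7.31, -5.63, -3.79 and -3.41 in p53-/- cells, above background at 24 and 48 h, and -6.79, -6.53 and -6.66 on the treated p53+/+ arrays, where it was not above background, as on the array labelled p53+/+ 0 h (-6.97). It was at least 1.28-fold lower on average (limma adjusted p = 0.031, from a fit to signals not above background on the p53+/+ side), and at 24 and 48 h as at least 1.65-fold and at least 2.33-fold lower. It did not pass with normexp background correction (adjusted p = 0.299) or without the p53+/+ 48 h array (adjusted p = 0.075).

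CMPK2 read -3.46, -1.90, -1.45 and -1.93 in p53-/- cells and -3.88, -4.33 and -4.81 on the treated p53+/+ arrays, the last 2 below background, with -3.06 on the array labelled p53+/+ 0 h. It was thus above its 0 h level on every treated p53-/- array and below that of the labelled array on every treated p53+/+ array. The difference was -2.58 ± 0.29 (adjusted p = 0.0029). A second CMPK2 probe, of another transcript, gave 0.84 and was not above background on any array.

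PARP14, a mono-ADP-ribosyltransferase, was the member of this role that was higher. It read -0.88, 0.18, 0.36 and 0.21 in p53-/- cells and 1.32, 1.68 and 1.26 on the treated p53+/+ arrays, with -0.35 on the array labelled p53+/+ 0 h. On both sets of arrays the 12 h level lay above 0 h by more than the 12, 24 and 48 h levels differed among themselves, and the difference of 1.17 ± 0.19 passed (adjusted p = 0.011). With no scaling it was 0.57 and with spike-in scaling 0.63, and it did not pass there (adjusted p = 0.098 and 0.090). PARP9, SAMD9, SAMD9L, IFI6 and IFI35 had differences of -0.93 (SAMD9L) to 0.13 (PARP9), and none passed. IFI6, a mitochondrial protein that opposes apoptosis, read -1.48, -0.69, 0.70 and 1.96 in p53-/- cells and -0.35, 0.96 and 1.56 on the treated p53+/+ arrays, higher at each later time in both, with -1.34 on the array labelled p53+/+ 0 h.

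The ISRE core was found among the members called in either direction. Of the 5 higher, all 5 had a promoter window and 4 held the core, STAT2 being without it. Of the 6 lower, 5 had a window and 4 held it, CMPK2 being without it. Sites of 5 called members are printed with 5 bases on either side, the core in capitals as it reads on the gene's strand, to be set beside the windows above.
IFIH1 site, chr2:162318691-162318710, gene on the minus strand: gaatcGAAACAGAAAccaaa
PARP14 site, chr3:122680805-122680824, gene on the plus strand: gaaacGAAAGCGAAAgagtc
IFI44 site, chr1:78649766-78649785, gene on the plus strand: ctgagTTTCAGTTTCctttc
IFITM1 site, chr11:314029-314048, gene on the plus strand: tctgaGAAACTGAAAcgaca
RSAD2 site, chr2:6877627-6877646, gene on the plus strand: tcaacTTTCAGTTTCacatg
PARP14 and IFIH1 were higher on the treated p53+/+ arrays and IFI44, IFITM1 and RSAD2 lower, and the letters of the core were present in both groups. Of the sites printed, 1 a gene, those of IFI44 and RSAD2 have the core on the opposite strand, where it reads TTTC, any 2 bases and TTTC. The IFIH1 window also held cores on the opposite strand, from -159 to -150 and from -153 to -144. A further core in the IFITM1 window ran from -40 to -31 on the gene's strand.

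Members that lie side by side on a chromosome differed in the same direction in some places and not in others. Of 13 pairs of members that neighbour each other among protein-coding genes, 7 differed between genotypes in the same direction. The sign was counted at any size, down to -0.02 for OAS1, and no share was computed for neighbouring genes in general. IFI44L with IFI44, CMPK2 with RSAD2 and HERC6 with HERC5 were among the 7, and IFITM1 with IFITM2 and IFIT1 with IFIT5 among the other 6.

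From 24 to 48 h most members were lower on the p53+/+ arrays and higher on the p53-/- arrays. On the p53+/+ arrays 9 of the 41 were at least 2-fold lower at 48 h than at 24 h (IRF7, OAS1, OAS3, OASL, IFIT1, ISG15, HERC5, MX1 and IFI44), against 6.07% of all genes, and 0 were at least 2-fold higher, against 7.13%. In all 32 of the 41 were lower to any extent, against 38.3%. On the p53-/- arrays 9 were at least 2-fold higher at 48 h (OAS1, OAS2, OASL, ISG20, IFIT1, USP18, BST2, MX1 and IFI6), against 6.1%, and 0 were at least 2-fold lower, against 1.39%. There was no test, since each step compares 1 array with 1 array.

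The sizes were moderate for most genes. The median step of the 41 was -0.36 on the p53+/+ arrays and 0.38 on the p53-/- arrays, and that of all genes was 0.15 and 0.03. IFIT1 was 5.01-fold lower at 48 h than at 24 h on the p53+/+ arrays and 2.33-fold higher on the p53-/- arrays. OASL was 2.22-fold lower and 2.23-fold higher. ISG15 was 2.29-fold lower and 1.99-fold higher. The step was downward on the p53+/+ arrays and upward on the p53-/- arrays for 22 of the 41, and for 18.1% of all genes.

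Of the 3 treated arrays, the highest was the 24 h array for 21 of the 41 on the p53+/+ side, against 22.3% of all genes, and the 48 h array for 27 on the p53-/- side, against 41.1%. Among the 31 members above background on all 8 arrays, 4 were at least 2-fold lower on the p53+/+ side (3.91% of such genes) and 5 at least 2-fold higher on the p53-/- side (1.09%). The 9 lower members on the p53+/+ side were 9 with quantile normalization (7.49% of all genes) and with median scaling (6.51%), 14 with no scaling (9.65%) and 4 with normexp background correction (2.81%), and the number at least 2-fold higher was 0 in each. The 9 higher members on the p53-/- side were 6 with normexp background correction (0.873%) and 14 with spike-in scaling (9.37%). The p53+/+ step could not be computed on spike-ins, because the p53+/+ 48 h array had no spike-in probe above background.

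**Figure D5:**
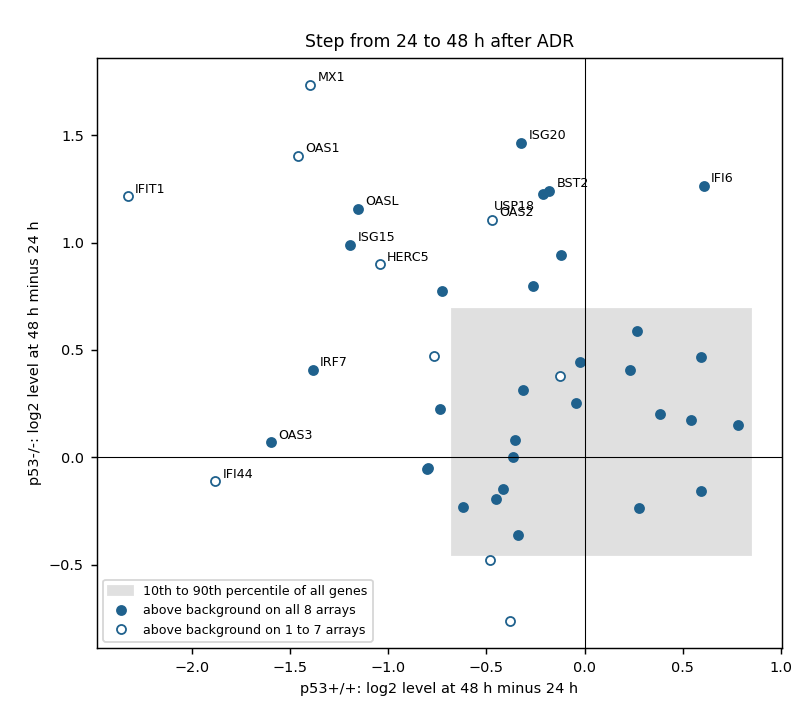
Log2 level at 48 h minus 24 h on the p53+/+ arrays (horizontal) and on the p53-/- arrays (vertical) for the 41 tested members, with open points above background on 1 to 7 arrays, names for those at least 2-fold apart in either genotype, and a grey box from the 10th to the 90th percentile of all genes on each axis. Of the points, 22 lie at the upper left, lower in p53+/+ and higher in p53-/- cells, with IFIT1 farthest left.

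The genes that carry the interferon signal to these targets were taken as a second list. Of a JAK-STAT list of 25 ligands, receptors, transducers and inhibitors, 24 had a probe and 19 were tested. Of the 8 interferon genes with a probe, IFNB1, IFNA2, IFNK, IFNG and IFNL3 were not well above background on any array, and IFNE, IFNL1 and IFNL2 were above it on some. IFNL1, a type III interferon, was above background on the p53-/- 48 h array alone (-4.46). The array cannot say whether interferon protein was made.

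Of the 19, 3 passed as higher on the treated p53+/+ arrays, where 11.6% of all genes did, and 1 as lower, where 9.34% did. IL10RB, the receptor chain that type III interferons share with IL-10, read 0.30, 0.23, 0.46 and 0.18 in p53-/- cells and 1.50, 1.52 and 0.82 on the treated p53+/+ arrays, a difference of 0.99 ± 0.25 (adjusted p = 0.039). IFNLR1, the chain specific to type III interferons, read -1.95, -2.53, -2.15 and -1.94 and then -4.27, -5.16 and -4.81, the last 2 below background, a difference of -2.54 ± 0.29 (adjusted p = 0.0031). IL10RB read 0.11 and IFNLR1 -3.50 on the array labelled p53+/+ 0 h. The 2 chains of 1 receptor thus differed in opposite directions.

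STAT3 and PTPN6 (SHP-1, a phosphatase that damps JAK signalling) were the other 2 called, with differences of 0.93 ± 0.20 (adjusted p = 0.023) and 1.18 ± 0.22 (adjusted p = 0.015). The median treated difference of the 19 was -0.04, against 0.13 for the 41 members.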

How the data were processed

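The 8 RNA samples of MCF10A cells (2 genotypes, each at 0 h and at 12, 24 and 48 h after ADR) were hybridized to 8 single-colour Agilent arrays on 1 slide. Precision is limited by having 1 array a condition. The authors deposited the output of Agilent Feature Extraction 10.7.3.1 for each array, whose processed signal is an intensity on a linear scale after the scanner software's background correction, and a table of the series with the same intensity values (503808 of 503808 equal). No normalization between arrays is given in the sources used here. The file headers name the human build hg19, so coordinates are given for the RefSeq promoter windows only, in GRCh38.p14.

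Control spots and spots marked as uneven or outliers were left out, and the log2 processed signal minus the array's 75th percentile was averaged over spots, which left 42391 probes. Probes were named by transcript accession through a RefSeq table of GRCh38.p14, which matched 27227 probes (64.2%) to 20296 genes, and the probe with the highest mean stood for its gene. A model with 4 cell means was fitted by limma 3.58.1 in R 4.3.3 to the 28947 probes that the scanner software marked well above background at least once, and p-values were adjusted by Benjamini-Hochberg (threshold 0.05). The 3 treated times of a genotype stand in for replicates, so p-values set each difference against the spread over times, which may be technical or biological. Differences between single arrays were called at 2-fold, with no test. A probe below background on 1 side gave a lower bound, taken against the lowest signal above background on those arrays. The script was tested on simulated data. Python 3.11.15, pandas 2.3.3, numpy 2.4.6 and matplotlib 3.10.9 were used.

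The members and lists were chosen with earlier results of these data known. Named with their values were the members past the limma threshold or past 2-fold at all 3 times in a genotype, the 5 highest and 3 lowest differences, members whose probes disagree, and the 4 transcription factors, and from the JAK-STAT list those past the same thresholds, and 1 gene that this rule names is not reported here. A few others were named after their values were seen, among them IFI6 and markers split like BST2. The alternatives were quantile normalization, median scaling, no scaling, normexp background correction of the median signal (offset 50), the mean of all probes, 2 other filters on dim probes, each treated time left out, a 3-fold rule, the p53-/- 0 h array as baseline, time as a block and an intensity trend, and, chosen after seeing the data, spike-in scaling and the loss of either p53+/+ array that stands apart (0 h, 48 h).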

Additional observations from a re-analysis of the deposited data

Results flagged for a closer look

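The interaction term of limma, the difference between genotypes in the change from 0 h, passed for 2 members, with 1 array at 0 h in each genotype and the error taken from the treated times. For BST2 the change on the p53+/+ arrays exceeded that on the p53-/- arrays by 6.61 ± 0.94 on the log2 scale (adjusted p = 0.030), and all 3 treated p53+/+ arrays lay above all 5 others. For IRF1 it was -2.42 ± 0.39 (adjusted p = 0.042), where the p53-/- 0 h array read -1.90 and every other array 0.16 to 0.74. Both values rest on the array labelled p53+/+ 0 h. That array lay nearer the p53-/- level for 222 of 230 genes that separate treated p53+/+ from p53-/- arrays. Genes that ADR changes only where p53 is present are chosen by the same rule, so this count is no test of the label. Neither passed with time point as a block, without the p53+/+ 48 h array or with any 1 treated time left out, and for IRF1 the term restates the low p53-/- 0 h array.

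For CMPK2 every treated p53-/- array lay above its 0 h array and every treated p53+/+ array below the array labelled p53+/+ 0 h (the 24 and 48 h ones not above background), and the mean changes differed by -2.98 on the log2 scale. This opposition of directions was not tested as such, and the interaction term for CMPK2 did not pass (adjusted p = 0.063).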

How the results depend on the processing

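The 11 members called between treated genotypes kept their direction in every setting computed for them, and of these BST2 alone passed in all 15. Of the counts, 7 members at least 2-fold higher at all 3 times in p53-/- cells became 12 with no scaling, 3 with normexp background correction and 3 under the 3-fold rule. The 12 in p53+/+ cells became 7 under the 3-fold rule and 7 of 31 when all 8 arrays had to be above background. The 5 members higher on treated p53+/+ arrays became 2 with no scaling, 2 with spike-in scaling and 9 with normexp background correction. The 2 interactions became 4 with normexp background correction and 11 with the p53-/- 0 h array as baseline for both genotypes, which makes that term the treated comparison itself. They became 0 with time point as a block (limma, 9 at an unadjusted p under 0.05) and 0 without the p53+/+ 48 h array (7 unadjusted).

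When 1 treated time was left out of both genotypes, leaving 2 arrays a genotype, the count higher in p53-/- cells was 7 to 20 and that in p53+/+ cells 12 to 14. Members higher on treated p53+/+ arrays numbered 1 to 3, members lower 0 to 4 and interactions 0 to 0. The median difference was 0.00 to 0.35. Of the 11 calls, 5 were lost without the 12 h arrays (STAT2, IFIH1, GBP2, PARP14 and IFI44) and 5 without the 48 h arrays (STAT2, IFITM1, GBP2, RSAD2 and PARP14). Without the 24 h arrays limma called BST2 and no other member, with 6 members higher and 6 lower at an unadjusted p under 0.05, and 4 to 11 interactions were unadjusted calls. Without the 12 h arrays the count higher in p53-/- cells was 20.

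The median treated difference of all genes was 0.05, and -0.55 with no scaling, -0.63 with spike-in scaling and 0.19 with normexp background correction, so differences are relative to that shift. Members not called changed sign of their difference under other scalings: 2 with quantile normalization, 6 with median scaling, 1 with normexp background correction, 13 with no scaling and 15 with spike-in scaling, which left out the p53+/+ 48 h array. Probes near background, 10 of the 41, limit what can be said of HERC5, HERC6, MX1, MX2 and RSAD2 most. The labels give no replicate numbers, and pairing the arrays by time point (the block above) kept the 5 higher and 6 lower calls and gave 0 interactions.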
